A study of Mus musculus with 12 samples.

Results

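The 10 genes described here, Igf2, Igf2r, Dlk1, Peg3, Cdkn1c, Grb10, Mest, Snrpn, Plagl1 and Ndn, are imprinted in the mouse, and were taken from the gene expression table by their symbols. The table held 20718 genes and 16296 of these passed the filter on low counts, including all 10 imprinted genes. In most tissues 7 of them are expressed mainly from the paternal allele (Igf2, Dlk1, Peg3, Mest, Snrpn, Plagl1 and Ndn) and 3 mainly from the maternal allele (Igf2r, Cdkn1c and, outside neurons, Grb10). The values are total RNA levels and do not separate the alleles.

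RNA was measured in 4 groups of 3 testis libraries, whose labels begin with F0_ for the injected generation. All groups were ICR males (the labels spell the strain IRC) whose testes had been injected with lentivirus at 4 weeks of age, and which were then kept for 5 weeks, to 9 weeks of age, mated for 4 days and kept for a further 4 days. The F0_5251KD group received a mix of viruses carrying 3 short hairpin RNAs against lncRNA5251, a long non-coding RNA, in the LV3 backbone, and F0_3NC received the negative control of that backbone. The F0_5251OV group received lncRNA5251 in the LV5 backbone for overexpression, and F0_5NC received the empty LV5 vector. F0_5251KD was therefore set against F0_3NC and F0_5251OV against F0_5NC, and F0_3NC was set against F0_5NC as the difference between controls. No gene of the table carries the name lncRNA5251, so its own level was not analysed here. Virus was injected into a whole organ that holds germ cells and somatic cells, and no source used here gives the share of cells that took it up. Whether each library is a different animal is not stated in the labels, and p-values therefore cover library-to-library spread, which may be technical.

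Genomic imprinting is a form of gene regulation in which DNA methylation laid down in the germ line marks the parental origin of an allele, and the marked allele is kept silent or active in the offspring. The marks are erased in the early germ line and set anew, in the male germ line as a paternal pattern, so that germ cells and the somatic cells of a testis carry different patterns. Many imprinted genes act on fetal growth: the growth factor IGF2 and the genes of its network promote or restrain it, and several of these genes are silenced or lowered in most organs after birth.

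The 10 genes lie on 6 chromosomes, 5 of them on chromosome 7 (RefSeq coordinates, GRCm38). On chromosome 7, Igf2 (chr7:142650768-142666816, minus strand) and Cdkn1c (chr7:143458339-143461059, minus strand) lie in the distal imprinted cluster with 791522 bases between them. Snrpn (chr7:59982495-60450177, minus strand) and Ndn (chr7:62348277-62349928, plus strand) share the cluster that corresponds to the human Prader-Willi region, with 1898099 bases between them, and Peg3 (chr7:6703892-6730462, minus strand) lies in a cluster of its own. Igf2r is at chr17:12682406-12769706 (minus strand), Grb10 at chr11:11930499-12037428 (minus strand), Dlk1 at chr12:109452485-109463336 (plus strand), Mest at chr6:30733506-30748466 (plus strand) and Plagl1 at chr10:13090832-13131694 (plus strand).

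CpG sites, where DNA methylation is written, are unevenly spread over the starts of these genes. Whether an imprinting mark lies at any of these starts was not examined. In RefSeq (GRCm38.p6), 9 of the 10 genes had promoter entries, with 18 transcript starts in all, and Cdkn1c had none. In the 250 bases before a start, the median over 32851 promoters of 27025 genes was 6 CpG sites, and 11 of the 18 starts, from 7 of the 9 genes, were above it. The sequences of 3 starts are shown. They belong to the genes whose libraries did not overlap in a comparison described further on, none of which passed the adjusted threshold. For each of these genes the start with the most CpG sites was taken, so the sparse end is not shown. Other starts held as few as 1 site (Igf2) and 2 sites (Snrpn). CpG sites are in capitals, and each sequence is written from 5′ to 3′ on the strand of its gene.
Grb10, chr11:12037421-12037670, minus strand, 40 CpG sites: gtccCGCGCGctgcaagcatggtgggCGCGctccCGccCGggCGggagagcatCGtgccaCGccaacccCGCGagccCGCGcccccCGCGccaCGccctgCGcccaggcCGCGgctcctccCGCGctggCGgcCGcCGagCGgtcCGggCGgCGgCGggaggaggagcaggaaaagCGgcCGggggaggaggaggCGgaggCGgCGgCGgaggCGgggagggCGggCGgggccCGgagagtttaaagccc
Igf2, chr7:142658805-142659054, minus strand, 22 CpG sites: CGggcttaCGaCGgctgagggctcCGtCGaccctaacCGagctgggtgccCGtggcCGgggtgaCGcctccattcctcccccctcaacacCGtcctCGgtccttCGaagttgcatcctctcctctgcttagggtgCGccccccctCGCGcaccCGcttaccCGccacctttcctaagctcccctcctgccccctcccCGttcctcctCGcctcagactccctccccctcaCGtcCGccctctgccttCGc
Ndn, chr7:62348027-62348276, plus strand, 5 CpG sites: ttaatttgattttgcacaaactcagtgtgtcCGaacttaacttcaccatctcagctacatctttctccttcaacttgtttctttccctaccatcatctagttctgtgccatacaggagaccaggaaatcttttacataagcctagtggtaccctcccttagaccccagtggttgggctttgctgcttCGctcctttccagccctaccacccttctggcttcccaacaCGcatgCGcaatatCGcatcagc
The Grb10 start was denser in CpG than 98.8% of all promoters, this Igf2 start (of 4 listed for the gene) denser than 85.9%, and the Ndn start was near the middle, at the 47.0 percentile. The letters GGGCGG, the core of a GC box, were searched on both strands and stood in 8 of the 18 starts, the Grb10 and Igf2 starts shown here included, against 32.7% of all promoters. TATAAA, the core of a TATA box, stood in 1 of the 18, a start of Snrpn, against 12.4% of all promoters.

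The libraries held between 15431383 and 16355720 estimated counts, and 18611 to 18722 genes had a count. Markers of the testis were abundant in every library: the summed level of 5 elongated spermatid markers was 33300 to 41900 FPKM (fragments scaled to transcript length and library size) and that of 6 spermatocyte markers was 3160 to 3350 FPKM. On the first principal component (17.2% of the variance) the 6 libraries of the LV3 backbone lay below 0 and the 6 of the LV5 backbone above it. F0_5NC replicate 1 stood apart in several marker lists, with a summed level of 11 Sertoli cell markers of 1100 FPKM (545 to 756 in the other 11 libraries) and of 8 Leydig cell markers of 4500 FPKM (1770 to 3890 in the others). Not all somatic lists were high in it: its peritubular sum was the lowest, 227 FPKM (229 to 267 in the others). Among germ cell lists, its spermatogonia sum was the highest, 71.5 FPKM (50.1 to 62.1), and its round spermatid sum the lowest, 720 FPKM (780 to 859). The 5 epididymis markers summed to 8.4 to 78.4 FPKM in F0_5NC and 0.33 to 55.2 in F0_5251OV, but to 0.36 to 4.63 in F0_3NC and 0.05 to 0.29 in F0_5251KD. Values without F0_5NC replicate 1 are given below for Igf2, Ndn, Mkrn3, Dnmt3l, Igf1r, Igfbp5, the IGF pathway list and lists of somatic markers. For the lists and the last 4 genes this was chosen after seeing the data.

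The imprinted genes were measured at low to moderate levels in the adult testis. On the length-scaled FPKM, the median of all genes was 3.09, and 4 of the 10 imprinted genes had a mean over the 12 libraries above it. Together they took 0.0103% of the estimated counts. Snrpn, which encodes a protein of the spliceosomal small nuclear ribonucleoproteins, was the highest at 7.52 ± 0.65 FPKM (SD over 12 libraries), at the 63.8 percentile of all genes. It was followed by Grb10, an adaptor that restrains insulin and IGF receptor signalling, at 5.75 ± 0.41 FPKM, and by Cdkn1c, the cyclin-dependent kinase inhibitor p57, at 5.33 ± 0.50 FPKM. These 3 genes and Igf2 formed the upper part of the order.

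The growth factor gene Igf2 itself was at 3.22 ± 0.71 FPKM, Igf2r, whose receptor carries IGF2 to lysosomes for degradation, at 2.49 ± 0.27 FPKM, and Ndn (necdin, a MAGE family protein that restrains growth in neurons) at 2.37 ± 0.51 FPKM. Mest, which encodes an enzyme of the alpha/beta hydrolase family, was at 0.884 ± 0.25 FPKM, the zinc finger gene Peg3 at 0.850 ± 0.11 FPKM and the zinc finger gene Plagl1 at 0.843 ± 0.071 FPKM. Dlk1, a membrane protein related to Notch ligands, was the lowest at 0.345 ± 0.14 FPKM, at the 25.0 percentile of all genes, and was covered by only 5 to 17 counts per library. The order had 3 steps at which all 12 libraries of the upper gene lay above all 12 of the lower: Snrpn over Grb10, Ndn over Mest and Plagl1 over Dlk1. The other neighbours in the order overlapped in range, as the plot of FPKM by library shows, although within a library Cdkn1c was above Igf2 in 12 of 12 and Igf2 above Igf2r in 11 of 12. Grb10 was above Cdkn1c in 8 of 12 libraries, Igf2r above Ndn in 6, Mest above Peg3 in 5 and Peg3 above Plagl1 in 5, so the places of these neighbours cannot be told apart.

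**Figure D1:**
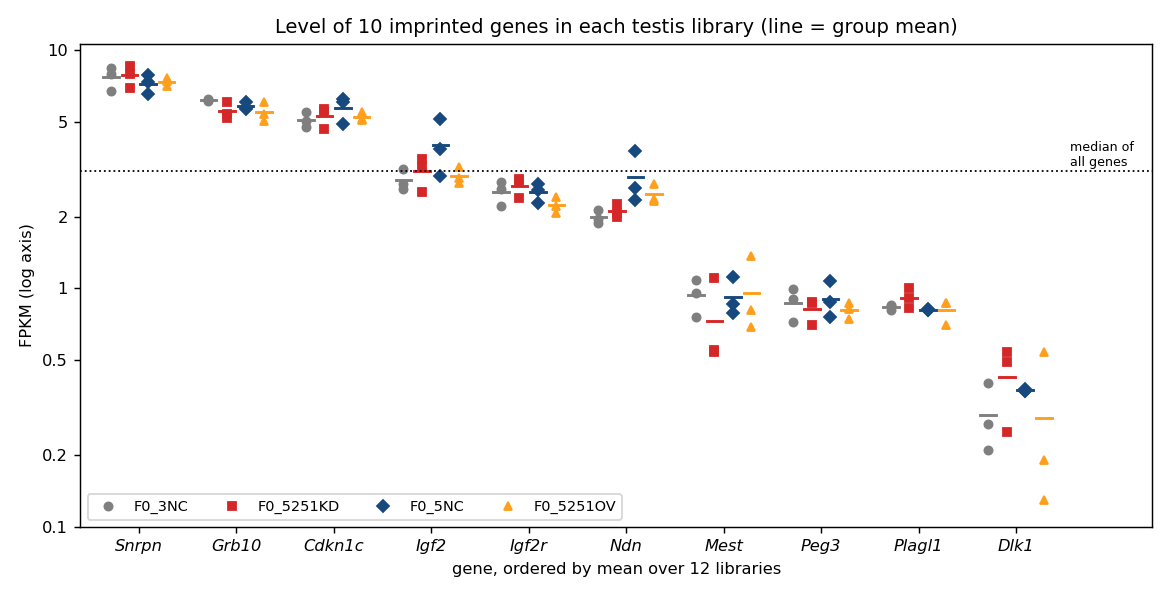
Level of each imprinted gene (FPKM, log axis) in each of the 12 testis libraries, with genes ordered by their mean, symbols for the 4 groups, a short line for each group mean and a dotted line at the median of all genes, 3.09 FPKM. Snrpn sits highest, between 6.51 and 8.58 FPKM, Dlk1 lowest, between 0.13 and 0.54 FPKM, and the F0_5NC symbols of Igf2 and Ndn reach above those of the other groups.

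The genes differed in how much their level varied between libraries. The highest library was less than 2-fold above the lowest for 6 of the 10 genes, with 1.23-fold for Grb10 and 1.43-fold for Plagl1. Igf2 spanned 2.02-fold and Ndn 2.01-fold, with coefficients of variation of 22.2% and 21.5%, although the counting error alone gives 7.58% and 13.3%. Dlk1 spanned 4.15-fold and Mest 2.52-fold, and they had coefficients of variation of 39.6% and 27.8%, where counting gives 32.4% and 17.2% at their depth. Igf2 was thus the gene whose spread exceeded its counting error by the largest factor.

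Part of the Mest, Snrpn, Cdkn1c and Igf2 values cannot be assigned with certainty, since annotated genes overlap them. No strand-marking step of the library preparation is named, which bears on the genes overlapped from the opposite strand, above all Mest and Cdkn1c. Smaller shares of the exonic bases of Snrpn (6.9%), Igf2 (1.7%) and Plagl1 (0.5%) are also overlapped from that strand. In the GENCODE annotation the opposite strand gene Copg2, at 25.9 FPKM, shares 912 of the 3945 exonic bases of Mest (23.1%). On the same strand as Snrpn, the model Gm38393 shares 589 of its 2159 exonic bases (27.3%). Snurf, also on that strand, shares 216 of them and was listed at 0.381 FPKM. An antisense gene, Gm44732, shares 30.7% of the exonic bases of Cdkn1c, and Gm49394, a model on the same strand, shares 62.8% of those of Igf2. For these genes reads of the overlapping models may be included in the counts.

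Whether knockdown of lncRNA5251 altered the imprinted genes was tested in F0_5251KD vs F0_3NC. None of the 10 genes passed the threshold of an adjusted p of 0.05 in edgeR, against 0.0245% of all 16296 genes tested (4 genes). Their log2 fold changes lay between -0.36 (Mest) and 0.78 (Dlk1), 7 were above 0 and 3 below, and the median was 0.05, beside -0.004 for all genes. At an unadjusted p under 0.05 there were 0 of 10, against 4.74% of all genes, and DESeq2 and limma called 0 of 10 as well. The libraries of the groups did not overlap, in CPM (counts scaled to library size), for 1 gene, Grb10, against 11.8% of all genes. Except for Dlk1 and Mest, the 95% intervals of the 8 other genes reached no lower than 0.737-fold (Peg3) and no higher than 1.5-fold (Igf2).

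Overexpression was tested in F0_5251OV vs F0_5NC. Again edgeR called 0 of the 10 genes, and 0 of all genes tested (0.0%), where DESeq2 called 30 of all genes and 0 of the 9 it gave an adjusted p (Dlk1 had none). The log2 fold changes lay between -0.44 (Igf2) and 0.11 (Mest), with 3 above 0 and 7 below, and a median of -0.07 beside -0.002 for all genes. Igf2 was the 1 gene of 10 with an unadjusted p under 0.05, against 8.76% of all genes. Groups without overlap in CPM were found for 0 of the 10, against 13.9% of all genes.

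The controls F0_3NC and F0_5NC differed in 54 of all genes (0.331%) by edgeR, and 0 of the 10 imprinted genes passed the threshold by edgeR, DESeq2 or limma. The log2 fold changes, F0_3NC over F0_5NC, lay between -0.52 (Ndn) and 0.12 (Grb10), with 5 above 0, 4 below and Peg3 at 0, and a median of 0.02 beside 0 for all genes. Igf2 and Ndn had an unadjusted p under 0.05, which makes 2 of 10 against 11.9% of all genes, and the same 2 genes had no overlap in CPM, against 17.0% of all genes.

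The difference of effects, that is the log2 fold change of F0_5251KD vs F0_3NC minus that of F0_5251OV vs F0_5NC, passed the threshold in edgeR for 0 of the 10 genes and for 0.0% of all genes, and at an unadjusted p under 0.05 for 1 of the 10 (Igf2), against 11.3% of all genes. DESeq2 called 35 of all genes and 0 of the 10 here. The differences ranged from -0.47 (Mest) to 0.97 (Dlk1), with a median of 0.10.

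**Figure D2:**
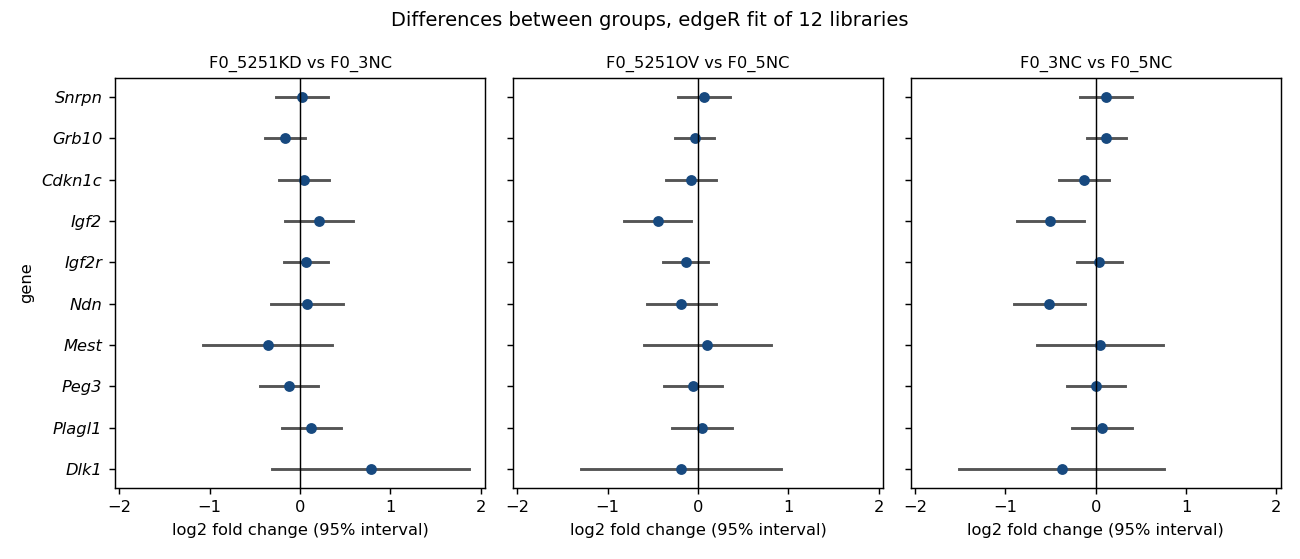
Log2 fold change of each imprinted gene with its 95% interval (x axis) in the 3 comparisons of groups, from the edgeR fit of 12 libraries, with genes in the order of their level (y axis) and a vertical line at 0. The intervals of Igf2 in F0_5251OV vs F0_5NC and of Igf2 and Ndn in F0_3NC vs F0_5NC do not reach 0, although no gene passed the adjusted threshold, and those of Dlk1 and Mest are the widest.

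Igf2, the growth factor of the network, had an interval that did not reach 0 in 2 of the 3 comparisons of groups. In CPM, Igf2 was 9.47, 9.24 and 10.1 in the F0_3NC libraries and 8.95, 12.6 and 11.7 in the F0_5251KD libraries. It was 17.1, 10.2 and 13.5 in the F0_5NC libraries and 10.5, 9.98 and 9.56 in the F0_5251OV libraries. The F0_5NC libraries held the highest value of all 12, replicate 1, and all 3 lay above the 3 F0_3NC libraries, while F0_5251OV overlapped F0_5NC through its replicate 1 and F0_5251KD spread to both sides of F0_3NC.

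The Igf2 level was 0.735-fold (95% interval 0.568 to 0.949) in F0_5251OV relative to F0_5NC, a log2 fold change of -0.44 ± 0.17 (SE), and its adjusted p was 0.552. In F0_3NC relative to F0_5NC it was 0.705-fold (0.545 to 0.912), a log2 fold change of -0.50 ± 0.17 (SE), with an adjusted p of 0.316. In F0_5251KD relative to F0_3NC it was 1.16-fold (0.893 to 1.5), with an adjusted p of 0.897. F0_5251OV and F0_3NC were set against the same F0_5NC libraries, so these 2 differences are not independent. The difference of effects for Igf2 was 0.66 ± 0.25 (SE), with an unadjusted p of 0.0185 and an adjusted p of 0.411.

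These Igf2 differences were smaller without F0_5NC replicate 1. Without this library the log2 fold change in edgeR was -0.25 in F0_5251OV vs F0_5NC (unadjusted p 0.144, adjusted p 0.987). It was -0.31 in F0_3NC vs F0_5NC (0.0752 and 0.707). For the difference of effects it was 0.47, where the unadjusted p was still under 0.05 (0.0498) and the adjusted p was 0.690. Without F0_5NC replicate 2, the lowest of its group, the F0_3NC vs F0_5NC difference was -0.67 with an adjusted p of 0.128. No imprinted gene reached a smaller one under any alternative other than the pooled counts, which take no account of replicate spread. By pooled counts Igf2 had a log2 ratio of -0.50 in F0_5251OV vs F0_5NC with an adjusted p of 9.76e-08. It was not called there, since the absolute log2 ratio was under 1. On the FPKM scale the F0_3NC values of 2.73, 2.61 and 3.16 overlapped the F0_5NC values of 5.14, 2.95 and 3.83, so the gap between the controls in CPM was not kept on the length-scaled values.

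The summed Sertoli and Leydig cell markers were highest in the library with the highest Igf2, and next highest in the library with the lowest. F0_5251KD replicate 1, with 756 FPKM of Sertoli cell and 3890 FPKM of Leydig cell markers, held the lowest Igf2 of all 12, 8.95 CPM. Over all 12 libraries, Pearson's r of Igf2 with the marker sums, both on a log2 scale, was 0.68 for Sertoli and 0.47 for Leydig cells. For Ndn it was 0.61 and 0.27. These r include F0_5NC replicate 1 and the differences between groups, and were not tested. The 11 Sertoli cell markers, each with counts, summed to 545 to 714 FPKM in F0_3NC, 664 to 756 in F0_5251KD, 702 to 1100 in F0_5NC and 566 to 687 in F0_5251OV, and 0 of 11 were higher in F0_3NC than in F0_5NC, with a median log2 fold change of -0.31, 6 with an unadjusted p under 0.05 (against 11.9% of all genes) and 0 past the adjusted threshold. Without F0_5NC replicate 1 the median was -0.15, 4 of 11 were higher and 1 had an unadjusted p under 0.05, against 6.96% of all genes in that fit. The same 11 markers had a median log2 fold change of -0.25 in F0_5251OV vs F0_5NC, with 0 of 11 higher (-0.08 and 3 of 11 without F0_5NC replicate 1), and of 0.14 in F0_5251KD vs F0_3NC, with 8 of 11 higher. The 8 Leydig cell markers summed to 2330 to 2450 FPKM in F0_3NC, 2290 to 3890 in F0_5251KD, 2180 to 4500 in F0_5NC and 1770 to 2560 in F0_5251OV. The part of these cell types, and of the epididymis markers given above, in the Igf2 and Ndn values was not tested. In bulk RNA a larger number of cells of a type and more RNA per cell cannot be told apart. The plot of both genes against the marker sums shows that F0_5NC replicate 1 was the highest library on every axis.

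**Figure D3:**
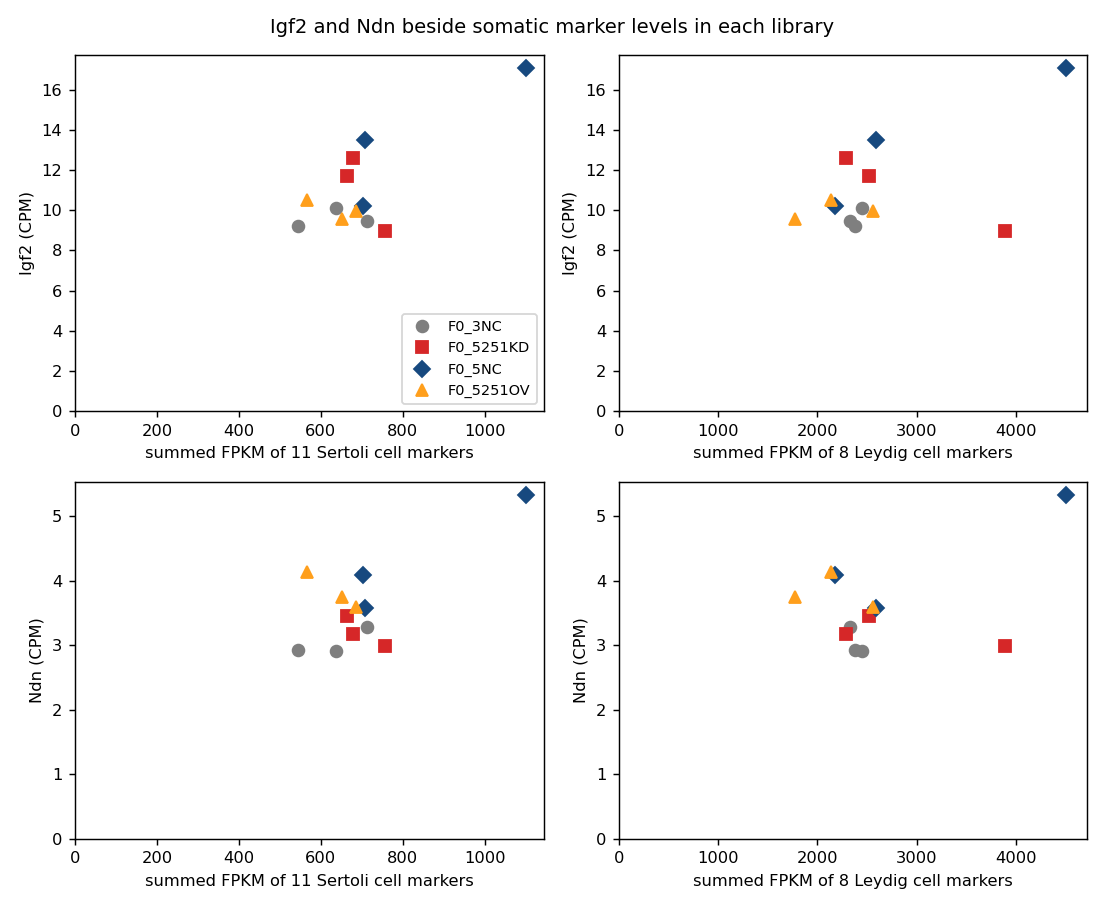
Igf2 (upper row) and Ndn (lower row) in CPM against the summed FPKM of 11 Sertoli cell markers (left) and 8 Leydig cell markers (right), 1 point per library and symbols by group, with all axes from 0. F0_5NC replicate 1 lies at the upper right of each panel, at 17.1 CPM of Igf2 and 5.33 CPM of Ndn, and the other 11 libraries lie between 545 and 756 FPKM of Sertoli cell markers.

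For Igf2r, the receptor that clears IGF2, the 95% intervals held 0 in each comparison. Its CPM was 23.1, 24.3 and 19.9 in F0_3NC and 20.6, 25.3 and 24.6 in F0_5251KD. With the LV5 backbone it was 22.4, 23.2 and 19.9 in F0_5NC and 21.2, 18.3 and 20.2 in F0_5251OV. All groups overlapped. The level in F0_5251OV relative to F0_5NC was 0.911-fold (95% interval 0.767 to 1.08) and that in F0_5251KD relative to F0_3NC was 1.05-fold (0.881 to 1.24), so changes beyond these bounds were not seen at this depth of 281 to 400 counts per library.

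Grb10 was the 1 imprinted gene whose knockdown and control libraries did not overlap. Its CPM was 30.3, 30.5 and 31.1 in F0_3NC and 25.0, 26.8 and 30.1 in F0_5251KD, and 25.9, 30.5 and 28.3 in F0_5NC and 29.9, 25.2 and 27.4 in F0_5251OV. The F0_3NC libraries lay within a narrow band at the top of the range of all 12 libraries, and F0_5251KD replicate 3, at 30.1 CPM, came close to them. The level in F0_5251KD was 0.891-fold that in F0_3NC (95% interval 0.766 to 1.04), a log2 fold change of -0.17 ± 0.10 (SE) with an adjusted p of 0.897. In F0_5251OV relative to F0_5NC it was 0.975-fold (0.838 to 1.14), and in FPKM, but not in CPM, the F0_3NC libraries also lay above all F0_5NC libraries. With 386 to 501 counts per library Grb10 was the most deeply covered of the 10 genes, and its log2 fold change ran from -0.11 without F0_5251KD replicate 1 to -0.25 without F0_5251KD replicate 3.

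The cell cycle inhibitor Cdkn1c and the transcription factor Plagl1, which regulates other genes of the imprinted growth network, had groups that overlapped in each of the 3 comparisons made. Cdkn1c was 9.29 ± 0.77 CPM in F0_3NC, 9.56 ± 0.94 in F0_5251KD, 10.1 ± 1.2 in F0_5NC and 9.58 ± 0.55 in F0_5251OV (SD, n = 3 each). Plagl1 was 4.29 ± 0.12 CPM in F0_3NC, 4.67 ± 0.46 in F0_5251KD, 4.09 ± 0.22 in F0_5NC and 4.23 ± 0.50 in F0_5251OV (SD, n = 3 each). Fold changes were 0.916 to 1.03 for Cdkn1c and 1.03 to 1.09 for Plagl1. Over the 3 comparisons their 95% intervals lay between 0.756 and 1.25 (Cdkn1c) and between 0.821 and 1.37 (Plagl1), and differences within these bounds remained possible.

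Dlk1 and Mest, which are high in fetal tissues and fall after birth in many organs, had the widest intervals. The counts of Dlk1 were 6, 5 and 11 in F0_3NC and 17, 14 and 7 in F0_5251KD. They were 10, 11 and 8 in F0_5NC and 5, 15 and 5 in F0_5251OV. Replicates 1 and 2 of F0_5251KD were above all F0_3NC libraries, and replicate 3 fell among them. The fold of F0_5251KD over F0_3NC was 1.72 with a 95% interval of 0.807 to 3.66 and an adjusted p of 0.897, an interval that held both no change and a 3-fold difference. Its log2 value of 0.78 became 1.22 without F0_3NC replicate 3 and 0.52 without F0_5251KD replicate 1.

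For Mest the counts were 29, 37 and 41 in F0_3NC and 42, 20 and 21 in F0_5251KD. They were 33, 42 and 29 in F0_5NC and 53, 31 and 27 in F0_5251OV. In both treated groups replicate 1 was the highest and the other 2 libraries were lower. The fold of F0_5251KD over F0_3NC was 0.779 (95% interval 0.474 to 1.28, adjusted p 0.897) and that of F0_5251OV over F0_5NC was 1.08 (0.663 to 1.75, adjusted p 0.937). The knockdown log2 fold change of -0.36 became -0.79 without F0_5251KD replicate 1, -0.18 without F0_5251KD replicate 2, -0.20 without F0_5251KD replicate 3 and -0.22 without F0_3NC replicate 3.

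Ndn and Snrpn lie in the same imprinted cluster and are both expressed from the paternal allele, and their values differed in pattern. In CPM, Ndn was 3.28, 2.92 and 2.91 in F0_3NC and 2.98, 3.18 and 3.45 in F0_5251KD, against 5.33, 4.09 and 3.58 in F0_5NC and 4.13, 3.59 and 3.75 in F0_5251OV. Every library of the LV5 backbone lay above every library of the LV3 backbone, and the treated groups overlapped their own controls. The share of all genes that split the backbones in this way was not counted. Between the controls alone, 17.0% of all genes had no overlap. Ndn in F0_3NC was 0.700-fold that in F0_5NC (95% interval 0.534 to 0.918), a log2 fold change of -0.52 ± 0.18 (SE) with an unadjusted p of 0.0137 and an adjusted p of 0.341. In F0_5251OV relative to F0_5NC it was 0.881-fold (0.675 to 1.15) and in F0_5251KD relative to F0_3NC 1.05-fold (0.799 to 1.39). Without F0_5NC replicate 1 the log2 fold change between the controls was -0.34 (adjusted p 0.707) and that in F0_5251OV vs F0_5NC was -0.006. The backbone and any other difference between the control groups cannot be told apart.

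Snrpn was 14.8, 12.2 and 15.6 CPM in F0_3NC and 12.5, 16.0 and 14.7 in F0_5251KD, against 11.1, 13.8 and 14.4 in F0_5NC and 14.0, 13.9 and 13.5 in F0_5251OV. The groups overlapped in every comparison, F0_5NC replicate 1 was the lowest library here, and the folds lay between 1.01 and 1.08. Over the 3 comparisons the Snrpn intervals lay between 0.829-fold and 1.32-fold. Peg3, a zinc finger gene whose loss in mice affects growth and maternal behaviour, had means of 7.76 ± 0.97 CPM in F0_3NC, 7.15 ± 0.86 in F0_5251KD, 7.76 ± 0.91 in F0_5NC and 7.48 ± 0.60 in F0_5251OV (SD, n = 3 each). The fold of Peg3 was 0.920 (95% interval 0.737 to 1.15) for the knockdown and 0.963 (0.772 to 1.20) for overexpression, and all groups overlapped.

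Beyond the 10 genes, a list of 66 other imprinted genes was examined. Of these 58 were in the table, 8 were not analysed here, and 39 passed the filter. In each of the 3 comparisons of groups and in the difference of effects, 0 of the 39 passed the adjusted threshold by edgeR, and the same was found with DESeq2 and limma. At an unadjusted p under 0.05 there were 2 of 39 in F0_5251KD vs F0_3NC (4.74% of all genes), 1 in F0_5251OV vs F0_5NC (8.76%), 1 in F0_3NC vs F0_5NC (11.9%) and 1 in the difference of effects (11.3%). Their median log2 fold changes were -0.02, -0.03, 0.02 and -0.01, close to those of all genes.

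These genes were split by the allele listed as expressed, which was not measured in these libraries and may not hold in testis. The 15 other genes listed as paternally expressed had median log2 fold changes of -0.07 in the knockdown, -0.10 in overexpression and 0.09 between the controls. The 23 listed as maternally expressed had medians of 0, -0.02 and 0. Gnas, which is imprinted by isoform, made up the rest. The highest genes listed as paternally expressed were Mcts2 at 40.9 FPKM, Zdbf2 at 10.8 and Sfmbt2 at 9.12. The highest listed as maternally expressed were Commd1 at 78.8 FPKM, Nap1l4 at 52.8 and Cd81 at 43.3. Sfmbt2, a Polycomb group gene, was at 10.7 ± 1.5 FPKM in F0_3NC and 7.79 ± 0.59 in F0_5251KD (SD, n = 3 each), with a log2 fold change of -0.47 ± 0.14 (SE), an unadjusted p of 0.00435 and an adjusted p of 0.887. The plot of log2 fold changes by expressed allele shows most of these genes within the range of all genes.

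**Figure D4:**
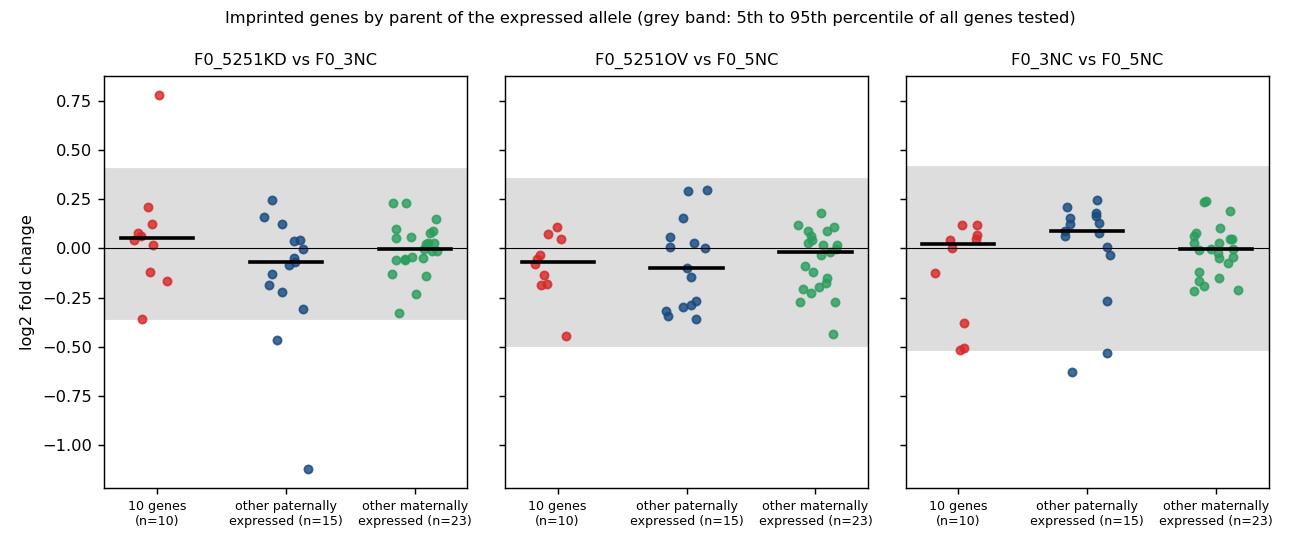
Log2 fold change (y axis) of the 10 imprinted genes and of other genes listed as paternally (15) or maternally (23) expressed in the 3 comparisons of groups. Each point is 1 gene, with a black line at each median and a grey band from the 5th to the 95th percentile of all genes tested. The medians lie between -0.10 and 0.09, and Dlk1 in the knockdown panel is the point of the 10 genes farthest from 0, at 0.78.

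The neighbours of the 10 genes in their clusters ranged widely in level in the adult testis. Of the 27 neighbours with values, 14 passed the filter. This compares with 39 of all 58 other imprinted genes with values, and 16296 of all 20718 genes. The highest neighbours were Nap1l4 (52.8 FPKM) and Cd81 (43.3 FPKM), in the cluster of Igf2 and Cdkn1c. The Dlk1 neighbours Rtl1 (0.0167 FPKM) and Dio3 (0.0542 FPKM) and the Grb10 neighbour Ddc (0.293 FPKM) did not pass the filter. Next to Ndn and Snrpn, Mkrn3, a ring finger gene, was at 0.700 ± 0.069 FPKM in F0_3NC and 1.11 ± 0.25 in F0_5NC (SD, n = 3 each), a log2 fold change of -0.63 ± 0.22 (SE) with an adjusted p of 0.341 (-0.66 and 0.616 without F0_5NC replicate 1). In that comparison the other tested genes of the cluster had log2 fold changes of 0.24 ± 0.14 (SE) for Ube3a (21.9 FPKM), 0.10 ± 0.098 for Atp10a (15.5 FPKM), 0.16 ± 0.54 for Snurf and 0.12 for Snrpn. The estimates of these 4 were above 0, where those of Ndn and Mkrn3 were below. For Snurf the SE is too wide to tell whether its level was also lower in F0_3NC.

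In the distal cluster around Igf2 and Cdkn1c, the 7 neighbours that passed the filter (Slc22a18, Cd81, Tssc4, Kcnq1, Nap1l4, Osbpl5 and Dhcr7) had log2 fold changes between -0.27 and 0.03 in F0_5251OV vs F0_5NC, where Igf2 was at -0.44. Between the controls they lay between -0.22 and 0.06, where Igf2 was at -0.50. Of the remaining neighbours, Usp29 beside Peg3 was at 0.647 FPKM, Slc22a3 beside Igf2r at 1.24 FPKM and Copg2 beside Mest at 25.9 FPKM, and none passed a test. The neighbours of Igf2 were thus less far from 0 than Igf2 itself, a difference between genes that was not tested.

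Genes of the IGF pathway and regulators of imprints were taken as further lists. Of 18 genes of the IGF pathway tested, 0 passed the adjusted threshold in any of the comparisons by edgeR, and those with an unadjusted p under 0.05 were 0 in the knockdown (4.74% of all genes), 4 in overexpression (8.76%), 4 between the controls (11.9%) and 2 in the difference of effects (11.3%). Without F0_5NC replicate 1 they were 2 in overexpression, against 4.14% of all genes, and 1 between the controls, against 6.96%. The highest were Igfbp7 (a secreted IGF binding protein relative) at 55.9 FPKM, Igf2bp3 (a protein that binds Igf2 mRNA) at 37.5 FPKM and M6pr (the small mannose 6-phosphate receptor) at 22.5 FPKM. Igf1r, the signalling receptor of IGF2, and the IGF binding protein gene Igfbp5 were picked with their values known. They are among the 4 with an unadjusted p under 0.05 in overexpression, and their log2 fold changes had opposite signs. The others of the 4, Irs2 (-0.64) and Igfbp6 (-0.51), both with an adjusted p of 0.552, were lower in F0_5251OV, as Igf1r was. Igf1r was at 1.78 ± 0.56 FPKM in F0_5NC and 1.22 ± 0.12 in F0_5251OV (SD, n = 3 each), with a log2 fold change of -0.51 ± 0.17 (SE) and an adjusted p of 0.536. Igfbp5 was at 0.263 ± 0.055 FPKM in F0_5NC and 0.547 ± 0.20 in F0_5251OV (SD, n = 3 each), with a log2 fold change of 1.07 ± 0.39 (SE) and an adjusted p of 0.552. Without F0_5NC replicate 1 the log2 fold changes were -0.34 for Igf1r and 0.87 for Igfbp5, both with an adjusted p of 0.987.

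Of 16 regulators of imprints tested, 0 passed the adjusted threshold by edgeR. Trim28, the corepressor that holds imprints with zinc finger proteins, was at 127 FPKM, Uhrf1, which brings the maintenance methyltransferase to DNA, at 26.2 FPKM and Zfp57, which binds methylated imprinting regions, at 18.4 FPKM, all above each of the 10 imprinted genes. The medians of the list were -0.06 in the knockdown, -0.02 in overexpression and 0.05 between the controls. At an unadjusted p under 0.05 there was 1 of 16 in overexpression (8.76% of all genes), between the controls (11.9%) and in the difference of effects (11.3%), each time Dnmt3l, the cofactor of germ line DNA methylation, which was picked with its values known. Its level was 4.25 ± 1.8 FPKM in F0_5NC, against 6.46 ± 1.2 in F0_5251OV and 6.98 ± 0.30 in F0_3NC (SD, n = 3 each), with log2 fold changes of 0.65 and 0.75 and adjusted p of 0.552 and 0.310. Without F0_5NC replicate 1 these were 0.57 and 0.66, with adjusted p of 0.987 and 0.705. Of 8 tested paralogues of the imprinted genes, 0 were past the threshold in edgeR, with 1 at an unadjusted p under 0.05 in overexpression (8.76% of all genes) and 1 in the difference of effects (11.3%).

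Over all 12 libraries, the genes whose pattern was most like an imprinted gene were found by Pearson's r of log2 CPM, as a description that takes the highest of all genes tested and includes differences between groups. Cdkn1c was most like Gm32289 (0.95), Slc20a2 (0.88) and Ubac2 (0.86), and Snrpn most like Pif1 (0.94), Tes (0.88) and Creb3l4 (0.88). Dlk1 was most like Paox (0.92), Tmem161a (0.88) and Avpi1 (0.86), at counts of 5 to 17, and Ndn most like Spint2 (0.91), Emb (0.90) and Slc35f2 (0.90). No imprinted gene was among the 3 nearest genes of these 4.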

How the data were processed

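The study's methods describe mRNA enrichment with oligo(dT) beads, cDNA from random hexamers, with no strand-marking step named, and alignment with SOAPaligner; per the labels the build was mm10. The authors deposited 1 table of estimated counts and FPKM values (RPKM in the study's methods) for each gene and library; the tool behind it is not named in the sources used here. Non-whole values made up 12% of the estimated counts (tolerance 1e-06), and 18 sample columns foreign to these 12 libraries were left out.

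Rounded estimated counts were tested in edgeR 4.0.16 under R 4.3.3: TMM (factors 0.97 to 1.078), filterByExpr, a two-sided quasi-likelihood F test in 1 fit of 4 groups with 8 residual degrees of freedom, and Benjamini-Hochberg adjustment over all genes tested at 0.05. Standard errors were taken as log2 fold change / sqrt(F), and CPM used TMM library sizes. Within groups, chi-square per gene between libraries was 3.73 to 20.2, so none repeated another.

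The 10 genes and the lists (other imprinted genes, IGF pathway, imprint regulators, paralogues, cell type markers) were chosen with earlier results of these data known. Named were the 10 genes, overlapping genes, cluster neighbours, in each list the genes called and the 3 highest in FPKM, and the 3 most alike of the 4 genes with the highest r. Alternatives were DESeq2 1.42.0, limma 3.58.1 on log2(FPKM + 1) and log2(FPKM + 0.1), no filter, at least 1 CPM in 3 libraries, only the compared groups, a replicate block, each library left out, and pooled counts (adjusted p of at most 0.001, absolute log2 ratio of at least 1). The test was tried on simulated data.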

Additional observations from a re-analysis of the deposited data

How the results depend on the processing

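For the 10 imprinted genes, 40 values (each gene in 3 comparisons and the difference of effects) were recomputed. The alternatives other than the pooled counts gave 566 further values. None of these passed the threshold (Dlk1 in F0_5251OV vs F0_5NC had no adjusted p under DESeq2), and the lowest adjusted p was 0.128. Of these values 30 reversed their direction, all with a size of at most 0.19 (log2) as first reported, and 536 did not. The 536 include Peg3 in F0_3NC vs F0_5NC, which was at 0. It ran from -0.081 to 0.097 with single libraries left out. By pooled counts no imprinted gene was called. Their adjusted p were under 0.05 for Igf2 (9.76e-08) and Igf2r (0.0203) in F0_5251OV vs F0_5NC, and Grb10 (0.0293) in F0_5251KD vs F0_3NC. Under limma on log2(FPKM + 0.1) and log2(FPKM + 1) the difference of effects for Peg3 was 0.054 and 0.029 (-0.07 in edgeR), and Plagl1 in F0_5251OV vs F0_5NC was -0.006 and -0.001 (0.05). Leaving out single libraries gave -0.018 to 0.118 for Cdkn1c, -0.013 to 0.149 for Igf2r and -0.081 to 0.108 for Snrpn in F0_5251KD vs F0_3NC. It gave -0.926 to 0.087 for Dlk1, -0.101 to 0.024 for Grb10, -0.222 to 0.302 for Mest, -0.136 to 0.032 for Peg3, -0.014 to 0.142 for Plagl1 and -0.037 to 0.153 for Snrpn in F0_5251OV vs F0_5NC. It gave -0.018 to 0.119 for Igf2r and -0.093 to 0.245 for Mest in F0_3NC vs F0_5NC, and -0.162 to 0.022 for Peg3, -0.018 to 0.139 for Plagl1 and -0.159 to 0.064 for Snrpn in the difference of effects. The counts over all genes moved more, and the cause was not tested. In F0_5251KD vs F0_3NC (4 by edgeR) DESeq2 called 20, limma 2 (+ 1) and 0 (+ 0.1), the pooled counts 143 and leaving out a library 0 to 4. In F0_5251OV vs F0_5NC (0) DESeq2 called 30, the fit of the compared groups 3, no filter 3, the pooled counts 191 and leaving out a library 0 to 1. In F0_3NC vs F0_5NC (54) DESeq2 called 138 and leaving out a library gave 30 (without F0_5NC replicate 3) to 54. In the difference of effects (0) DESeq2 called 35, limma (+ 1) 1 and leaving out a library 0 to 1. Of the other imprinted genes 0 were called under any alternative. Replicates share only a number: same-numbered libraries of different groups deviated with correlations of -0.24 to 0.16 (2 of 18 pairs over 0.1), and with the replicate block F0_5251KD vs F0_3NC had 2 genes in place of 4, F0_3NC vs F0_5NC 50 in place of 54, and no imprinted gene passed. With 5 to 17 counts for Dlk1 and 20 to 53 for Mest, depth limits these genes most.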

Other observations

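Over the 10 imprinted genes, the library with the highest CPM belonged to F0_5NC for 4 genes, to F0_5251KD for 4, and to F0_3NC and F0_5251OV for 1 each. For 3 of the 4 in F0_5NC (Igf2, Ndn and Peg3) it was replicate 1. The library with the lowest CPM belonged to F0_5251KD for 5 genes. Zrsr1, a paternally expressed splicing factor gene, had a log2 fold change of 0.24 in F0_5251KD vs F0_3NC with an adjusted p of 0.897, and was named after its values were seen. Among the 11 lists of cell type markers, 1 gene was past the adjusted threshold in edgeR, an adipocyte marker in F0_3NC vs F0_5NC, and summed adipocyte markers lay between 14.4 and 46.8 FPKM over the libraries. In F0_5251OV vs F0_5NC, 0 of 8 Leydig, 0 of 11 Sertoli, 0 of 7 endothelium and 0 of 7 macrophage markers were higher in F0_5251OV, with median log2 fold changes of -0.22, -0.25, -0.26 and -0.34. Of the peritubular markers 1 of 6 was higher, with a median of -0.42, and of the adipocyte markers 1 of 5, with a median of -1.19. Over all genes tested, 49.5% were higher. Without F0_5NC replicate 1, chosen after seeing the data, 2 of 8 Leydig, 3 of 11 Sertoli, 3 of 7 endothelium and 2 of 7 macrophage markers were higher. Their medians were -0.20, -0.08, -0.10 and -0.10. The peritubular and adipocyte markers kept 1 of 6 and 1 of 5 higher without it, with medians of -0.39 and -1.7. In F0_3NC vs F0_5NC without it, 0 adipocyte, 1 macrophage and 1 epididymis marker passed the adjusted threshold.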
